A study of Mus musculus with 16 samples.

Results

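The genes described here are 41 glycolysis and hypoxia response genes, a named list of the enzymes that break down glucose and of genes known to rise when oxygen is scarce. All 41 were found by symbol among the 21959 genes listed for each mouse, and all 41 passed the filter on low counts. Total RNA from the tumor tissue of 16 mice with liver metastases was made into mRNA libraries and sequenced. There were 4 mice in each of 4 groups: mice given PBS (control), SB525334 by daily gavage at 20 mg/kg, KN046 by intraperitoneal injection 2 times a week at 10 mg/kg, or both agents together (the combination). All 16 were male wild-type C57BL/6 mice injected at 6 weeks of age, in the lower part of the spleen, with MC38, a mouse colon adenocarcinoma line. SB525334 is a small molecule that inhibits the type I TGF-β receptor ALK5, and KN046 is an antibody against PD-L1 and CTLA-4. The metastases come from a single cell line, grew in hosts with an intact immune system, and were sampled as bulk tissue, so each value sums tumor cells, immune and stromal cells and any adjacent liver.

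Glycolysis splits glucose into pyruvate in the cytosol, and a cell short of oxygen turns the pyruvate into lactate and exports it. The shift is driven by hypoxia-inducible factor (HIF), whose α subunits are marked for degradation by oxygen-dependent prolyl hydroxylases and which binds short DNA elements with the core ACGTG or GCGTG near its target genes. Tumors often run glycolysis even with oxygen present, and the tracer 18F-FDG, which the study used for imaging, reports glucose uptake and its first phosphorylation step. The levels below are CPM, counts scaled to each library's total after TMM scaling, a correction for library composition. A gene was called changed at an adjusted p under 0.05 in edgeR's quasi-likelihood test, fitted to all 13968 tested genes and all 16 mice. The 3 comparisons with control share the 4 control mice.

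The total count per mouse was between 18368994 and 23877131. Control mice 1 and 2, and control mice 3 and 4, differed less than the other within-group pairs did (median chi-square per gene of 1.25 and 0.956, against 2.82 or more), although both pairs differed by more than sampling noise. The labels do not say whether the samples of such a pair shared material. If they did, tests against control would rest on fewer than 4 independent control samples. The 14 hepatocyte markers that were matched, read as a measure of adjacent liver, summed to 13102 to 14829 CPM in control, 337 to 1731 with SB525334, 8340 to 16517 with KN046 and 56 to 67.7 with the combination. All 14 were called lower with SB525334 and with the combination, and none with KN046, and Serpina1c was at 0 in all 4 combination mice. The 7 epithelial and carcinoma markers summed to 6.61 to 16.4 CPM with the combination, 37.6 to 51.1 with SB525334 and 152 to 249 in control. Of the 7, 6 were called lower with the combination and 2 with SB525334. Their levels in MC38 cells alone were not measured, so they are no sure measure of tumor cells. The 8 proliferation markers summed to 1386 to 1500, 1392 to 1636 and 1565 to 1865 CPM in the same order, with 1 called lower with the combination and 0 with SB525334. In bulk tissue, fewer cells of a type and less RNA per cell cannot be told apart.

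Measured per kilobase of exon, the list was led by enzymes of glycolysis and by lactate dehydrogenase. The exon length merges all annotated transcripts of a gene (13417 bases for Pkm, 7160 for Gapdh and 2244 for Pgk1). The order of the genes therefore depends on the annotation as well as on the counts. In control mice, Pgk1 (phosphoglycerate kinase) was at a mean of 490.4 CPM per kilobase, Ldha (lactate dehydrogenase A) at 376, Tpi1 (triose phosphate isomerase) at 285 and Eno1 (enolase) at 232. At the other end were Eno2 at 0.803 CPM per kilobase and Car12, a membrane carbonic anhydrase, at 0.0659, with 0 to 22 counts per mouse. Several of the abundant enzymes (Gapdh, Pgk1, Ldha, Aldoa) have many near-identical processed pseudogenes in the mouse, and how reads shared with them were counted is not given in the sources used here, so their absolute levels are uncertain.

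Few of the 41 genes changed with any treatment. With SB525334, 2 were called lower (Adm and Vegfa) and 0 higher, where 9.22% of all tested genes were called lower and 0.394% higher. With KN046, 1 was called lower (Aldoc) and 0 higher, where 2.40% of tested genes were called lower and 1.60% higher. With the combination, 1 was called lower (Lox) and 0 higher, where 9.74% of tested genes were called lower and 1.37% higher. The counts of 0 higher stand beside 0, 7 and 0 members higher at an unadjusted p under 0.05, and DESeq2 also called 0 higher in each of the 3. At an unadjusted p under 0.05 in either direction there were 5 of 41 with SB525334, where 18.9% of tested genes were, 10 with KN046, where 23.1% were, and 2 with the combination, where 22.1% were. The members' shares of calls were thus near or below those of all genes.

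**Figure D1:**
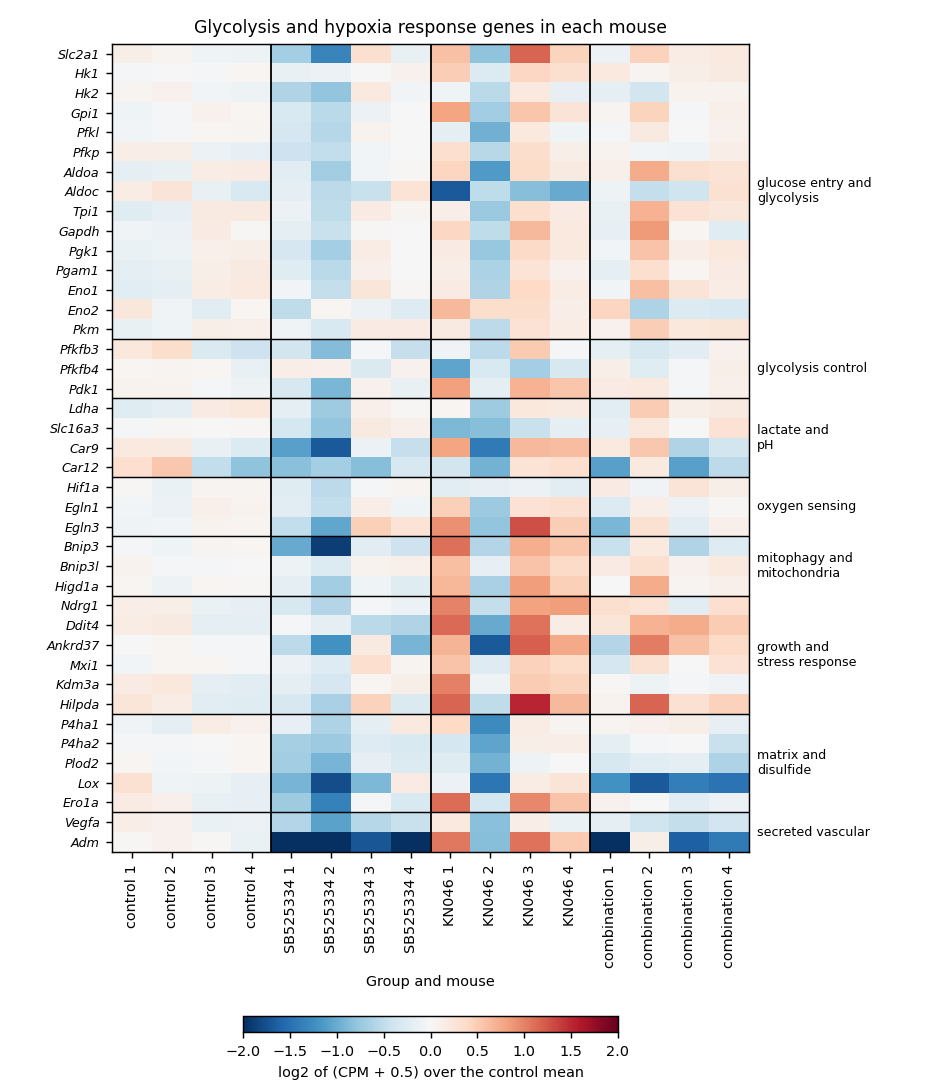
Heat map of the 41 genes (rows, grouped by role) in each of the 16 mice (columns); color gives the log2 ratio of CPM + 0.5 to the control mean + 0.5, clipped at -2 and 2. KN046 mouse 2 and SB525334 mouse 2 stand out as blue columns, KN046 mice 1, 3 and 4 as mostly red ones, and Adm and Lox are blue in most mice given SB525334.

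Against control, the members' median log2 fold change was -0.21 for SB525334, 0.11 for KN046 and 0.08 for the combination. The same medians over all tested genes were 0.00059, -0.03 and 0.01. With SB525334, 38 of the 41 values were below 0. With KN046, 28 were above 0, and with the combination, 25. The KN046 median was 0.04 without KN046 mouse 1, 0.34 without mouse 2 and 0.02 without mouse 3, and between 0.09 and 0.16 in the other 5 fits that left out 1 mouse, with 21 to 33 genes above 0 over the 8. The combination median was 0.03 without combination mouse 2, 0.12 without combination mouse 1 or 3, and between 0.07 and 0.10 in the others.

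**Figure D2:**
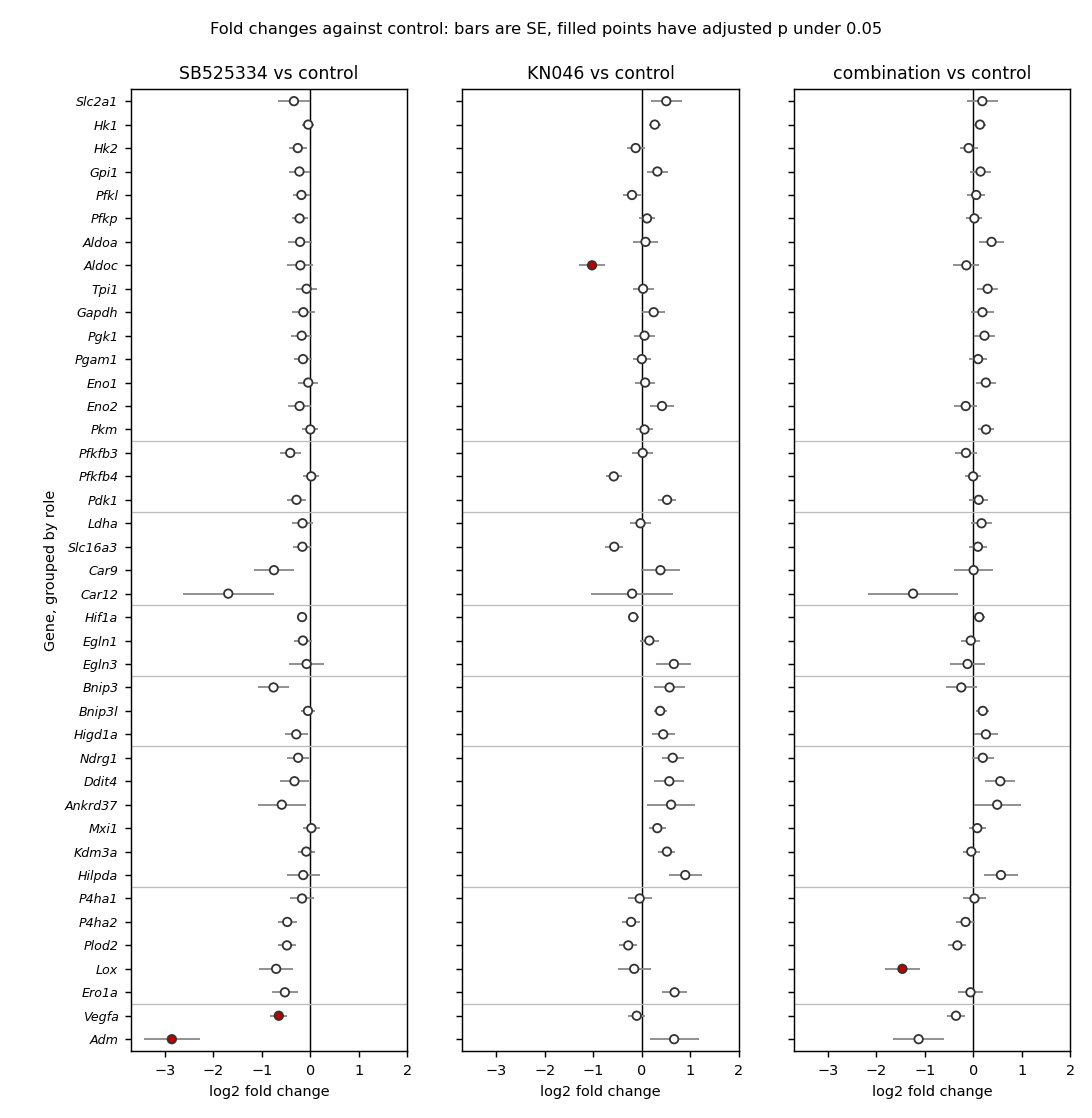
Log2 fold change of each of the 41 genes (rows, grouped by role) against control for SB525334, KN046 and the combination; points are edgeR estimates, bars are SE, and filled points have an adjusted p under 0.05. Only Adm and Vegfa (SB525334), Aldoc (KN046) and Lox (combination) are filled.

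Adm and Vegfa, the list's secreted vascular factors, were the members called with SB525334. Adm (chromosome 7, GRCm39 positions 110226858 to 110229027) encodes adrenomedullin, a peptide that widens and seals blood vessels. It read 6.08, 6.34, 6.04 and 5.38 CPM in control mice 1 to 4, 0.995, 0.438, 1.46 and 0.388 with SB525334, 12.9, 3.06, 13.2 and 8.78 with KN046, and 0.924, 6.51, 1.58 and 1.93 with the combination. All 4 SB525334 mice were below all control mice, and 1 combination mouse, number 2, stood at the control level. Adm fell 7.25-fold with SB525334 (log2 fold change -2.86 ± 0.58 SE, adjusted p = 0.00198 by edgeR) and stayed called in all 8 fits that left out 1 mouse. With the combination its log2 fold change of -1.13 ± 0.53 SE was not called (adjusted p = 0.217 by edgeR).

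Vegfa (chromosome 17, 46327919 to 46343309), the growth factor that drives new vessels, read 339.6, 329, 283 and 285 CPM in control, 205, 148, 207 and 228 with SB525334, 356, 173, 339.5 and 281 with KN046, and 271, 235, 223 and 237 with the combination. Both groups given SB525334 lay wholly below the control mice. Vegfa fell 1.57-fold with SB525334 (log2 fold change -0.65 ± 0.18 SE, adjusted p = 0.0234 by edgeR), a call that was lost without control mouse 1 or 2 or without SB525334 mouse 1 or 2, with an adjusted p of up to 0.1, and at 0.122 when each similar control pair was summed. With the combination its log2 fold change was -0.36 ± 0.18 SE (adjusted p = 0.252 by edgeR).

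Markers of endothelial cells and neutrophils were also lower with SB525334. Of the other blood-cell lists, 0 of 7 macrophage, 0 of 6 T cell and 1 of 6 tested erythroid markers were called lower. The 7 endothelial markers summed to 57.5 to 104 CPM with SB525334 against 126 to 261 in control, and 5 of the 7 were called lower. The 7 neutrophil markers summed to 8.54 to 19.9 CPM against 105 to 121, 6 of the 7 were called lower, and Ly6g was at 0 in all 4 SB525334 mice. With KN046 the neutrophil markers also summed to 16.7 to 26.8 CPM, while Adm was at 3.06 to 13.2. With the combination, 3 of the 7 endothelial and 1 of the 7 neutrophil markers were called lower, and neither Adm nor Vegfa was called. The endothelial markers there summed to 110 to 128 CPM. The neutrophil markers summed to 14.0, 18.9, 5.84 and 151 CPM in combination mice 1 to 4, so only mouse 4 was not far below control. All 7 neutrophil markers had log2 fold changes below 0. The part of these cells, and of the hepatocyte markers, in the fall of Adm and Vegfa was not tested.

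The letters of the HIF core were looked for in the promoters of the 41 genes. A window from 250 bases before to 50 after the start of each gene's canonical transcript (GRCm39 sequence, GENCODE M39) was searched for ACGTG and GCGTG on both strands. Matches may share bases, as in CACGTG, which reads as ACGTG on both strands. ACGTG was found in 23 of the 41 windows (56.1%), against 24.9% of the 13935 tested protein-coding genes, and GCGTG in 21 (51.2%), against 46.4%. Either was found in 29 (70.7%), against 58.3%. The list was made of known glycolysis and hypoxia genes, so these shares are a description and nothing is read from them. The 100 bases before the start are shown for Adm, Ndrg1, Ero1a and Bnip3, picked among genes with a match there. These genes were among 21 members above every control mouse in KN046 mice 1, 3 and 4. Of the 21, Gpi1, Higd1a, Hilpda, Kdm3a and Pkm held neither core in their windows. Capitals mark each match, with CACGT and CACGC being the cores read on the other strand.
Adm (chr7:110226758-110226857, plus strand): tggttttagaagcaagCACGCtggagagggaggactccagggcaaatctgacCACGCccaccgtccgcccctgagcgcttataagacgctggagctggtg
Ndrg1 (chr15:66841803-66841902, minus strand): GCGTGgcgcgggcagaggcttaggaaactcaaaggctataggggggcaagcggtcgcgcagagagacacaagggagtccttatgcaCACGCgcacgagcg
Ero1a (chr14:45556037-45556136, minus strand): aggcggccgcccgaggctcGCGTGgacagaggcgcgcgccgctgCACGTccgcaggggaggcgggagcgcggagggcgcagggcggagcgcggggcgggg
Bnip3 (chr7:138511254-138511353, minus strand): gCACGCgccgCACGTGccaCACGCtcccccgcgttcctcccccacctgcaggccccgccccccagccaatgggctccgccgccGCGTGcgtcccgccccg
The Vegfa, Aldoc, Hilpda and Kdm3a windows held neither core. Sequence outside the windows was not searched, so this does not mean that these genes lack a HIF site. A match is a run of letters and no measure of binding.

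The matrix and disulfide genes modify collagen and fold secreted proteins: P4ha1, P4ha2 and Plod2 hydroxylate collagen, Lox crosslinks it and Ero1a serves the formation of disulfide bonds. Lox (chromosome 18, 52649136 to 52663110), lysyl oxidase, read 44.7, 33.7, 33.4 and 32.0 CPM in control, 18.7, 10.2, 19.1 and 40.3 with SB525334, 33.1, 12.9, 40.0 and 43.2 with KN046, and 15.2, 10.9, 13.4 and 12.6 with the combination. Every combination mouse was below every control mouse, and with SB525334 alone 3 of 4 were. Lox fell 2.76-fold with the combination (log2 fold change -1.46 ± 0.35 SE, adjusted p = 0.0083 by edgeR), and it was called in all 8 fits that left out 1 mouse and under all 8 other settings run. With SB525334 alone the log2 fold change was -0.71 ± 0.34 SE (adjusted p = 0.282 by edgeR).

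Lox also fell 2.47-fold in the combination relative to KN046 alone (log2 fold change -1.30 ± 0.35 SE, adjusted p = 0.0135 by edgeR), although KN046 mouse 2 lay within the combination's range. It had an adjusted p of 0.511 between the combination and SB525334. The 8 fibroblast markers, which include collagens that Lox acts on, summed to 6324 to 11712 CPM with the combination and 7642 to 8339 in control. By edgeR, 2 of the 8 were called lower with the combination than in control, Lum (lumican, which binds collagen fibrils) at a log2 fold change of -2.34 and Col1a2 at -0.57, and the 8 ran from -2.34 to 1.01. Relative to KN046, Lum was called lower (-2.11) and Col3a1 and Pdgfrb higher. The part of these cells in the fall of Lox was not tested. P4ha2 and Plod2 were lower in all 4 SB525334 mice than in all control mice (log2 fold changes -0.48 ± 0.19 and -0.48 ± 0.18 SE), but neither was called, with adjusted p-values of 0.169 and 0.129 by edgeR. In all, 5 of the 41 genes were wholly below control with SB525334, where 13.3% of tested genes were.

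Glucose entry and glycolysis, the list's largest group with 15 genes, had 0 calls with SB525334 and 0 with the combination, and no member there had an unadjusted p under 0.05 (DESeq2 also called 0). Slc2a1 (chromosome 4) encodes GLUT1, the transporter that brings glucose and FDG into most tumor cells. It read 172, 165, 150.3 and 148 CPM in control, 98.5, 63.0, 198 and 143 with SB525334, 239, 90.3, 357 and 215 with KN046, and 147, 219.7, 175 and 182 with the combination. The treated groups all overlapped control, and the KN046 mice spanned a wider range than any other group, with 3 mice above every control mouse and mouse 2 below every one. Slc2a1 had a log2 fold change of -0.34 (95% confidence interval -1.02 to 0.35) for SB525334, 0.51 (-0.18 to 1.19) for KN046 and 0.19 (-0.50 to 0.87) for the combination, with adjusted p-values of 0.668, 0.364 and 0.778 by edgeR.

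Hk2, the inducible hexokinase that traps glucose and FDG in the cell, read 105, 107.7, 97.3 and 93.6 CPM in control, 66.5, 58.0, 115 and 97.4 with SB525334, 94.6, 69.1, 116 and 90.4 with KN046, and 87.8, 78.1, 106 and 106 with the combination. Its groups overlapped throughout. The log2 fold changes were -0.26 (95% confidence interval -0.66 to 0.14), -0.13 (-0.52 to 0.27) and -0.10 (-0.49 to 0.30) in the same order, with adjusted p-values of 0.530, 0.720 and 0.807 by edgeR. Changes of about 2-fold in Hk2 therefore lay outside the intervals of all 3 comparisons, whereas for Slc2a1 the intervals reached 2-fold with SB525334 and KN046.

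**Figure D3:**
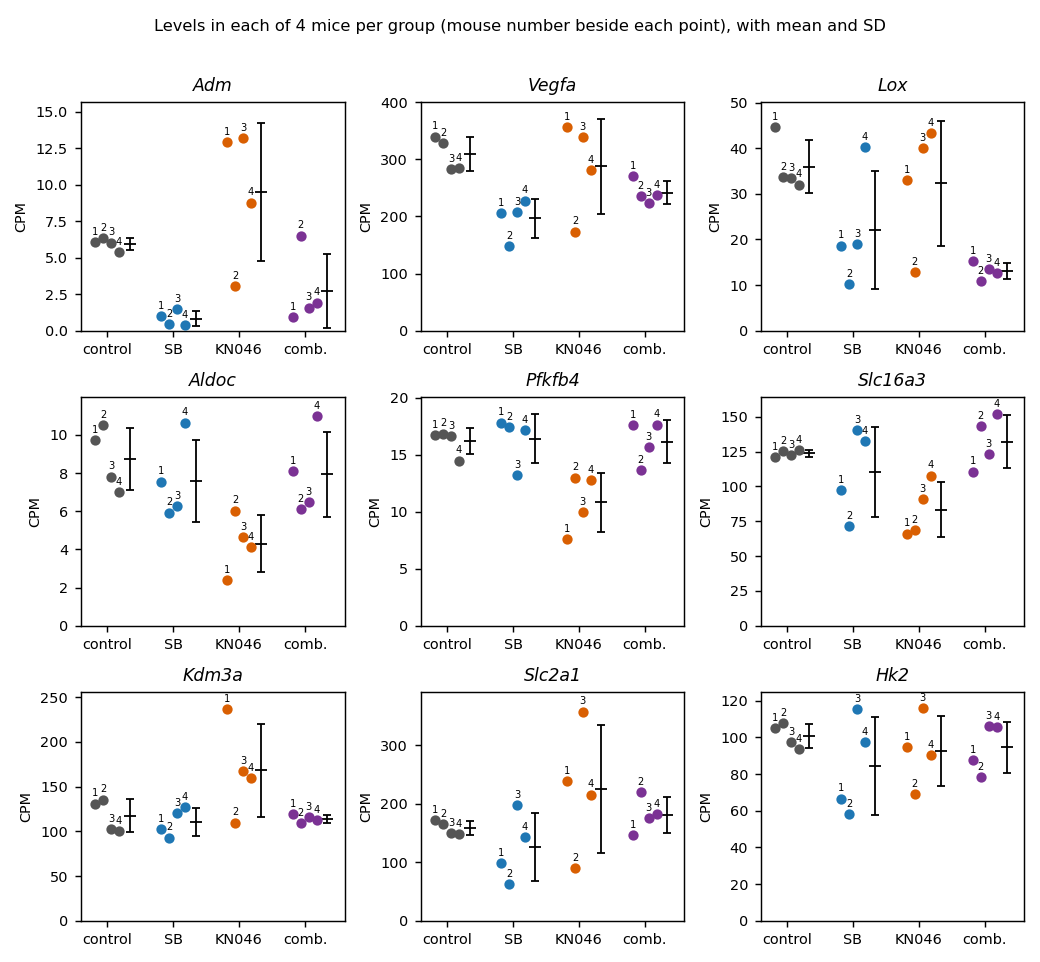
CPM of the 7 genes called in any comparison and of Slc2a1 and Hk2 in each mouse (4 per group, numbered), with the group mean and SD beside the points; each vertical axis starts at 0. The 4 combination mice sit at 10.9 to 15.2 CPM for Lox, below all control mice, and the 4 KN046 mice sit at 2.40 to 6.03 CPM for Aldoc.

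Over all 15 genes of this group, the estimated fold changes stayed in a narrow band with SB525334 and the combination. Mice within a group differed: the 15 summed to 9096 to 11070 CPM in control and 7246 to 11150 with SB525334. They summed to 6457 to 13270 CPM with KN046 and 10070 to 14790 with the combination. The log2 fold changes of the 15 genes ran from -0.34 to 0.00027 with SB525334, with 14 below 0, and from -0.16 to 0.38 with the combination, with 12 above 0. With KN046 they ran from -1.03 for Aldoc to 0.51 for Slc2a1. Hk1, the constitutive hexokinase, lay wholly above control with the combination (203.8 to 225.3 CPM against 190.8 to 202.0), as did Bnip3l and Ddit4, where 5.32% of tested genes did. None of the 3 was called, with adjusted p-values of 0.567, 0.426 and 0.306 by edgeR, and Plod2, Lox and Vegfa lay wholly below, where 12.1% did.

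With KN046, 3 genes of glucose use were lower in all 4 mice than in any control mouse. Aldoc (chromosome 11, 78213619 to 78218889), the brain-type aldolase, read 9.71, 10.5, 7.81 and 7.003 CPM in control, 7.55, 5.93, 6.28 and 10.6 with SB525334, 2.40, 6.03, 4.64 and 4.11 with KN046, and 8.11, 6.13, 6.50 and 10.98 with the combination. The KN046 mice were the lowest 4 of the control, KN046 and combination groups. Aldoc fell 2.04-fold with KN046 (log2 fold change -1.03 ± 0.27 SE, adjusted p = 0.0460 by edgeR), a call that held in 1 of the 8 fits without 1 mouse (the one without KN046 mouse 2) and in 4 of 8 other settings, with adjusted p-values of up to 0.251.

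Pfkfb4, a bifunctional enzyme that sets the level of the glycolytic activator fructose 2,6-bisphosphate, read 16.7, 16.9, 16.6 and 14.5 CPM in control, 17.8, 17.4, 13.2 and 17.1 with SB525334, 7.57, 13.0, 9.95 and 12.8 with KN046, and 17.6, 13.6, 15.67 and 17.6 with the combination. Slc16a3 (MCT4), the exporter of lactate from glycolytic cells, read 121, 125, 123 and 126 CPM in control, 97.2, 71.6, 141 and 132 with SB525334, 66.2, 68.6, 91.0 and 107.8 with KN046, and 111, 143, 123 and 152 with the combination. Both genes had KN046 mice wholly below the control and combination mice. Neither passed the test against control: Pfkfb4 had a log2 fold change of -0.58 ± 0.17 SE (adjusted p = 0.0594 by edgeR) and Slc16a3 one of -0.57 ± 0.19 SE (adjusted p = 0.0855 by edgeR). DESeq2 called Pfkfb4 lower. These 3 of 41 compare with 6.65% of tested genes that were wholly below control with KN046, and no member was wholly above, where 4.94% were.

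The same 3 genes were the members called higher when SB525334 was added to KN046. In the combination relative to KN046, 3 of the 41 genes were called higher and 3 lower, where 9.89% of tested genes were called higher and 14.5% lower, 24.4% in all. Aldoc was 1.85-fold higher (log2 fold change 0.88 ± 0.28 SE, adjusted p = 0.0276), Pfkfb4 1.49-fold (0.58 ± 0.17 SE, adjusted p = 0.0192) and Slc16a3 1.59-fold (0.67 ± 0.19 SE, adjusted p = 0.0165), all by edgeR. All 3 calls were lost without KN046 mouse 1 or without combination mouse 4. The comparison uses the same KN046 mice as the comparison above, so low values there enter both. Hif1a also lay wholly higher in the combination than with KN046, and 7.90% of tested genes did.

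The 3 members called lower in the combination relative to KN046 were Adm, Kdm3a and Lox. Adm fell 3.47-fold (log2 fold change -1.79 ± 0.53 SE, adjusted p = 0.0212 by edgeR). Kdm3a, a histone demethylase and HIF target, read 131, 136, 103 and 100.4 CPM in control, 103, 93.1, 121 and 127 with SB525334, 236, 109.8, 168 and 159 with KN046, and 119.5, 109, 116 and 112 with the combination. KN046 mice 1, 3 and 4 were above all other mice, and mouse 2 lay within the combination's range. Kdm3a fell 1.47-fold (log2 fold change -0.56 ± 0.17 SE, adjusted p = 0.0278 by edgeR), and the call was lost without KN046 mouse 1 or 3 or combination mouse 2, 3 or 4. The call of Adm was lost without KN046 mouse 1 or 3 or combination mouse 3 or 4.

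The KN046 group held 1 mouse that stood apart in these genes. KN046 mouse 2 was the lowest of its group for 36 of the 41 genes, against 25.9% of all tested genes, and below every control mouse for 39, against 23.6%. KN046 mice 1, 3 and 4 were all above every control mouse for 21 of the 41 genes, against 10.3%. Both held at once for 20, among them Slc2a1, Car9, Pdk1, Bnip3, Egln3, Ndrg1 and Ero1a, against 1.98% of tested genes. The median log2 ratio of the 41 genes to the control mean was 0.42, -0.65, 0.38 and 0.19 in KN046 mice 1 to 4, while the medians over all tested genes stayed between -0.09 and -0.01. This mouse was singled out after its values had been seen.

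Ndrg1, a stress-response gene induced by low oxygen, was one of these 20. It read 239, 236, 199 and 194 CPM in control, 174, 145, 211 and 200.2 with SB525334, 431, 156, 378 and 388 with KN046, and 271, 262, 188.5 and 275 with the combination. Ero1a read 113, 108.2, 91.2 and 90.04 CPM in control, 61.5, 38.97, 97.8 and 81.5 with SB525334, 218, 79.1, 197 and 149 with KN046, and 107, 100.2, 86.4 and 93.1 with the combination. In both, 3 KN046 mice were above every mouse of the other groups and mouse 2 was below every control mouse.

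Car9, the membrane carbonic anhydrase often used as a stain for hypoxia, read 16.4, 16.1, 12.8 and 11.7 CPM in control, 6.46, 4.10, 13.2 and 10.2 with SB525334, 25.0, 5.01, 22.5 and 22.1 with KN046, and 16.4, 20.9, 9.23 and 10.9 with the combination. Bnip3, which directs the removal of mitochondria, read 67.0, 64.1, 70.9 and 70.03 CPM in control, 33.7, 17.99, 58.1 and 50.9 with SB525334, 146, 45.2, 113 and 100.4 with KN046, and 49.8, 78.2, 44.7 and 56.6 with the combination. The SB525334 mice were wholly below control for Bnip3. With all mice, edgeR called neither gene in any of the 6 comparisons, whereas DESeq2 called Bnip3, and also Ero1a, lower in the combination than with KN046. The growth and stress response group, which includes Ndrg1, had 6 of 6 log2 fold changes above 0 with KN046, between 0.32 and 0.90, and none was called by edgeR or DESeq2.

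The comparisons were also made without KN046 mouse 2. Since its low values in these same genes singled it out, the counts that follow are a description, and nothing is read from them. Without it, 12 of the 41 genes were past the threshold as higher with KN046 than in control and 2 as lower, where 6.56% of tested genes were higher and 8.34% lower. Of the growth and stress response genes, 5 of 6 were among the 12: Hilpda, which coats lipid droplets (log2 fold change 1.18 ± 0.28 SE), Ndrg1 (0.89 ± 0.14 SE), Ddit4, Kdm3a and Mxi1. Of the mitophagy and mitochondria genes, Bnip3l and Higd1a were, and of the oxygen-sensing genes Egln3, the prolyl hydroxylase that HIF itself induces (0.95 ± 0.31 SE). Among the genes of glucose use, Hk1, Gpi1 and Pdk1, the kinase that keeps pyruvate out of the mitochondria, were among the 12, while Aldoc and Pfkfb4 were the 2 lower. Ero1a was the only one of the 5 matrix and disulfide genes past the threshold (0.91 ± 0.22 SE), and Slc2a1 was not (0.78 ± 0.27 SE). With all 4 mice, none of the 12 was called by edgeR or DESeq2.

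**Figure D4:**
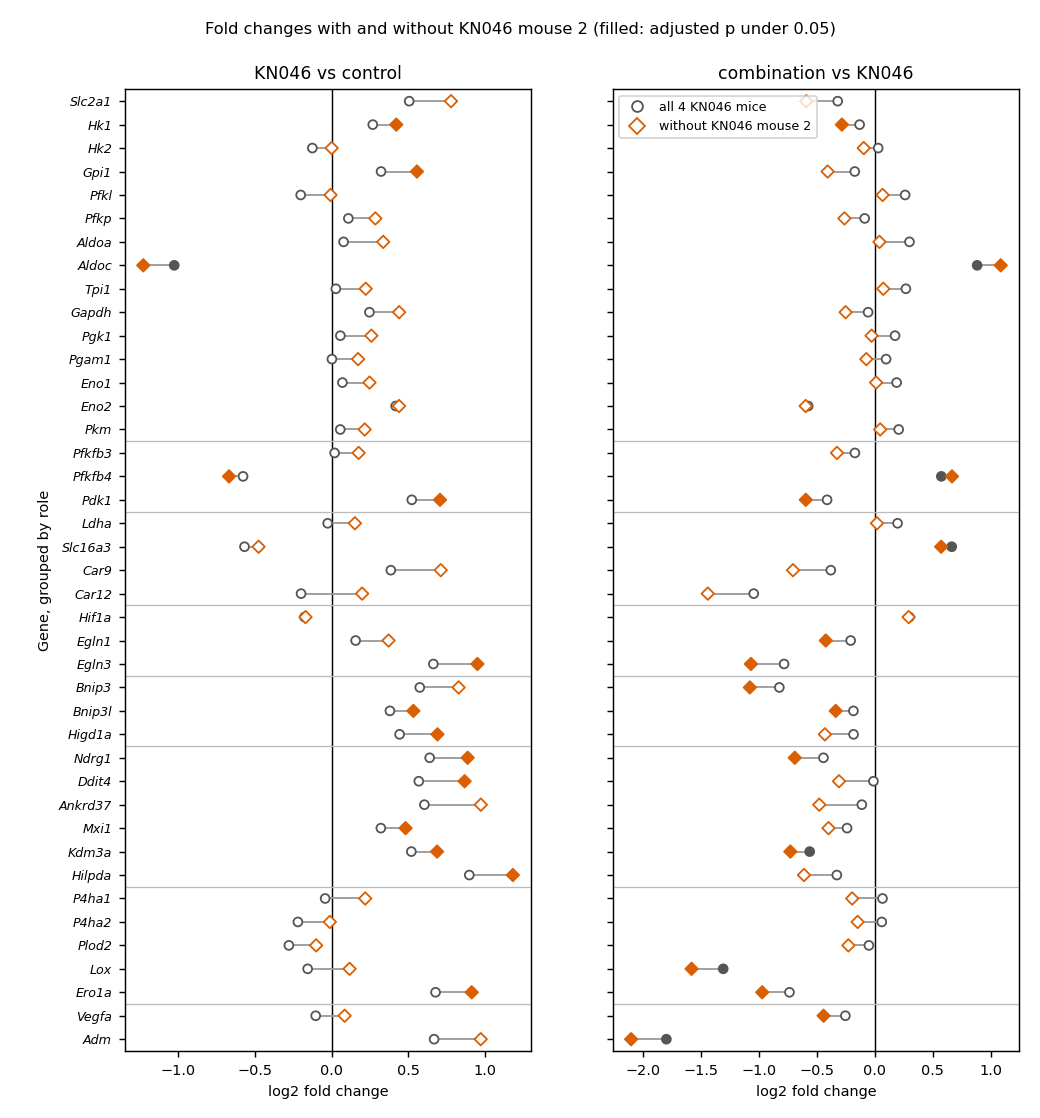
Log2 fold change of the 41 genes for KN046 against control (left) and the combination against KN046 (right), with all 4 KN046 mice (circles) and without KN046 mouse 2 (diamonds); filled symbols have an adjusted p under 0.05. Without that mouse 12 genes are filled to the right of 0 on the left panel and 12 to the left of 0 on the right panel. The mouse was singled out by its low values in these same genes, so nothing is read from these counts.

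The combination was also compared with the 3 remaining mice, again as a description from which nothing is read. Without KN046 mouse 2, 12 of the 41 genes were past the threshold as lower in the combination and 3 as higher, where 16.1% of tested genes were lower and 11.1% higher. The 12 were Adm, Lox, Bnip3, Egln3, Ero1a, Kdm3a, Ndrg1, Pdk1, Vegfa, Egln1, Bnip3l and Hk1, with Bnip3 at a log2 fold change of -1.07 ± 0.28 SE and Ero1a at -0.97 ± 0.22 SE. Aldoc, Pfkfb4 and Slc16a3 were the 3 higher. The macrophage markers summed to 912 CPM in KN046 mouse 2 against 481 to 624 in the other KN046 mice, the T cell markers to 18.4 against 6.43 to 11.3, and the epithelial and carcinoma markers to 202 against 125 to 163. The proliferation genes were also highest in mouse 2 (1875 CPM). The fibroblast markers (6451 CPM) and the erythroid markers (60.1 CPM) were lowest there, and the hepatocyte, neutrophil and endothelial sums lay inside the range of the others. The part of these cells in the low values of mouse 2 was not tested.

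SB525334 mouse 2 was likewise the lowest of its group for 35 of the 41 genes, against 26.9% of all tested genes. The median log2 ratio to the control mean was -0.33, -0.65, -0.03 and -0.01 in SB525334 mice 1 to 4. Without mouse 2 the median log2 fold change of the 41 genes with SB525334 was -0.09 in place of -0.21, and Adm alone was called. SB525334 mouse 2 was also singled out after its values in these genes had been seen, so nothing is read from the fit without it. The hepatocyte markers summed to 1731 CPM in SB525334 mouse 2 against 337 to 1300 in the other SB525334 mice, and the fibroblast markers to 10964 against 6951 to 9250, while the other 7 marker sums lay inside the range of the others. The part of these cells was not tested. The combination mice were closer to control, with medians of -0.06, 0.20, -0.01 and 0.11.

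Between the combination and SB525334 alone, 38 of the 41 genes were above 0, with a median log2 fold change of 0.29, but 0 were called by edgeR, where 0.544% of tested genes were called higher and 3.03% lower, 3.57% in all. Without SB525334 mouse 2 the median was 0.18, with 35 genes above 0, and it was 0.22 to 0.40 in the other 7 fits that left out 1 mouse. At an unadjusted p under 0.05 there were 7, where 9.19% of tested genes were, and DESeq2 called 1, Adm (higher). Aldoa, Higd1a and Ddit4 lay wholly higher in the combination, where 2.43% of tested genes did, and no member lay wholly lower, where 4.62% did. The interaction, which asks whether the effect of SB525334 differed with and without KN046, was called for 0 of the 41 genes by edgeR and 0 by DESeq2, where edgeR called 4.28% of tested genes, 1.73% higher and 2.55% lower. At an unadjusted p under 0.05 there were 4, where 16.6% of tested genes were: Slc16a3 (log2 0.83 ± 0.26 SE, adjusted p = 0.0940), Hif1a (0.47 ± 0.16 SE, adjusted p = 0.112), Aldoc and Pfkfb4, by edgeR.

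None of the 3 oxygen-sensing genes was called against control. Hif1a read 96.01, 85.6, 97.6 and 97.4 CPM in control, 79.6, 65.7, 92 and 97.5 with SB525334, 81.6, 83.6, 86.5 and 81.4 with KN046, and 105, 89.2, 113 and 103 with the combination. The log2 fold changes against control were -0.17 ± 0.11, -0.18 ± 0.11 and 0.12 ± 0.11 SE, with adjusted p-values of 0.464, 0.345 and 0.563 by edgeR. Egln1 and Egln3 had log2 fold changes between -0.15 and 0.66 in these comparisons. HIF activity is set largely by the stability of the protein, which was not measured here.

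Of 14 other regulators of the HIF pathway, 13 were tested. Epas1 (HIF-2α), which is abundant in endothelial cells and also made in liver, was the only one called against control. It read 42.2, 43.5, 35.7 and 30.8 CPM in control, 12.5, 13.1, 10.5 and 9.61 with SB525334, 28.3, 51.0, 57.9 and 43.2 with KN046, and 8.94, 5.02, 7.10 and 9.43 with the combination. Both groups given SB525334 lay far below control. Epas1 fell 3.34-fold with SB525334 (adjusted p = 1.36e-05) and 4.98-fold with the combination (adjusted p = 3.03e-07), both by edgeR, beside the lower endothelial and hepatocyte markers given above, whose part was not tested.

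Among 26 other HIF target genes, of which 25 were tested, 4 were called lower with SB525334 and 3 with the combination. Of all tested genes, 9.22% and 9.74% were. With KN046, 2 were called higher, where 1.60% of tested genes were. The glycogen-targeting subunits Ppp1r3c and Ppp1r3b were lower with both SB525334 (log2 fold changes -3.28 ± 0.67 and -2.58 ± 0.30 SE) and the combination (-3.76 ± 0.72 and -2.58 ± 0.30 SE). Insig2, a brake on sterol synthesis, read 63.4, 58.8, 52.5 and 52.2 CPM in control, 42.8, 44.9, 41.8 and 42.8 with SB525334, 80.4, 77.01, 96.01 and 81.9 with KN046, and 51.6, 50.7, 48.5 and 49.4 with the combination. It rose 1.48-fold with KN046 (log2 fold change 0.56 ± 0.09 SE, adjusted p = 0.0102 by edgeR), with all 4 mice above control, mouse 2 included, and fell 1.32-fold with SB525334 (-0.40 ± 0.09 SE, adjusted p = 0.00540 by edgeR). The call of Insig2 with KN046 held in all 8 fits that left out 1 mouse, but not with the 8 mice alone (adjusted p = 0.0567 by edgeR) or with each similar control pair summed (0.142). With the pairs summed, edgeR called 0 tested genes with KN046, where 1844 of 14241 had an unadjusted p under 0.05. In the combination relative to KN046, 9 of the 25 were called lower and 1, Pdgfb, higher, where 14.5% and 9.89% of tested genes were. The falls with SB525334 and the combination stand beside the lower hepatocyte markers given above, whose part was not tested.

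Of 14 other glycolysis and lactate genes, Pdk4 was called with all 3 treatments. Pdk4, the pyruvate dehydrogenase kinase induced by fasting, read 3.63, 3.55, 4.41 and 4.55 CPM in control, 0.497, 0.796, 0.559 and 0.388 with SB525334, 44.7, 5.06, 13.6 and 6.81 with KN046, and 0.822, 0.773, 1.42 and 1.13 with the combination. All KN046 mice were above control and all mice of the other treated groups below it. Pdk4 rose 4.34-fold with KN046 (log2 fold change 2.12 ± 0.50 SE, adjusted p = 0.0316), fell 7.10-fold with SB525334 (adjusted p = 0.00205) and fell 3.87-fold with the combination (adjusted p = 0.0237), all by edgeR. KN046 mouse 1 was far above the other 3, and without it the log2 fold change of Pdk4 with KN046 was 1.07 (adjusted p = 0.122 by edgeR). That call was lost in 6 of the 8 fits without 1 mouse, those without any 1 control mouse or without KN046 mouse 1 or 3. With the control pairs summed, Pdk4 was called neither with KN046 (adjusted p = 0.246 by edgeR) nor with the combination (0.0863). Slc2a3 (GLUT3) was also called lower with SB525334 (2.29-fold, adjusted p = 0.00935 by edgeR, and 0.0603 with the control pairs summed). None of the 7 pentose phosphate genes was called against control, and 4 (Pgd, Rpia, Rpe and Taldo1) were higher in the combination than with KN046, by 1.29 to 1.45-fold. Of these calls, Pgd was lost in 3 and Taldo1 in 5 of the 8 fits without 1 mouse, both of them without KN046 mouse 1 or combination mouse 2 or 4.

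The liver has its own genes of glucose handling, 11 of which were set beside the 41 genes. All 11 liver-type glucose genes were called lower with SB525334 and all 11 with the combination, and 0 with KN046 by edgeR (2 at an unadjusted p under 0.05). Pck1, which commits carbon to the making of glucose, read 232, 238, 174 and 178 CPM in control, 11.1, 22.1, 8.13 and 0.905 with SB525334, 181, 259, 235 and 64.2 with KN046, and 0.616, 0.0552, 0.164 and 0.0943 with the combination. G6pc1, the enzyme that releases free glucose, read 52.5, 51.4, 25.6 and 23.9 CPM in control, 1.09, 2.99, 0.990 and 0.948 with SB525334, 15.5, 18.3, 21.6 and 5.72 with KN046, and 0.0514, 0.0552, 0.0546 and 0.141 with the combination. The combination mice were near 0 for both, and every SB525334 mouse was far below control.

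With SB525334 the falls ran from 1.86-fold for Pfkfb1 (a call lost without SB525334 mouse 1 or 3 and with the control pairs summed) to 25.3-fold for G6pc1, with Pck1 at 19.4-fold, Pklr at 19.2-fold, Gckr at 19.0-fold, Slc2a2 at 17.0-fold, Gys2 at 16.7-fold, Fbp1 at 12.2-fold, Pygl at 3.80-fold, Tkfc at 2.96-fold and Khk at 2.22-fold. With the combination, no mouse had more than 3 counts for G6pc1, Gckr, Pklr or Gys2, and against that floor they were at least 247-fold, 111-fold, 78.0-fold and 64.2-fold lower than in control. Fbp1, with 0, 0, 1 and 5 counts in the combination mice, had a fitted log2 fold change of -9.57, and of -11.36 without combination mouse 4, whereas Khk, Pfkfb1 and Tkfc, which other tissues also use, fell 2.11-fold, 2.41-fold and 3.19-fold. Relative to SB525334 alone, 7 of the 11 were lower in the combination. These falls moved with the hepatocyte markers given above, and the part of adjacent liver in them was not tested.

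Where a family had members and liver or other isoforms, the members' share was computed in each mouse. The size of a share depends on the merged exon lengths, for example 13417 bases for Pkm and 3764 for Pklr. Slc2a1 made up 88.5% ± 1.37 (SD, n = 4) of the glucose transporters counted, per kilobase of exon, in control, 97.6% ± 1.92 with SB525334, 98.8% ± 0.595 with the combination and 91.4% ± 6.33 with KN046. The liver-type Slc2a2 made up 9.8%, 1.21%, 0.0375% and 7.69% on average in the same order. Slc2a1 itself was not called against control with any treatment, so a higher share here is no rise of Slc2a1. The part of adjacent liver in these shares was not tested. Pfkfb3 and Pfkfb4 made up 82.8% ± 3.58 of their family in control, 88.6% ± 4.48 with SB525334, 91.7% ± 1.37 with the combination and 78.7% ± 6.27 with KN046, with Pfkfb1 as the liver form. Ldha made up 99.9% of the lactate dehydrogenases in every group.

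Over 6 families and 5 comparisons, 30 shares were compared by an exact two-sided permutation test, and 11 reached 0.0286, the smallest p that 4 mice against 4 allow. None passed after Benjamini-Hochberg adjustment (0.0779 for those 11), which this design could reach only if more of the 30 were at the minimum.

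**Figure D5:**
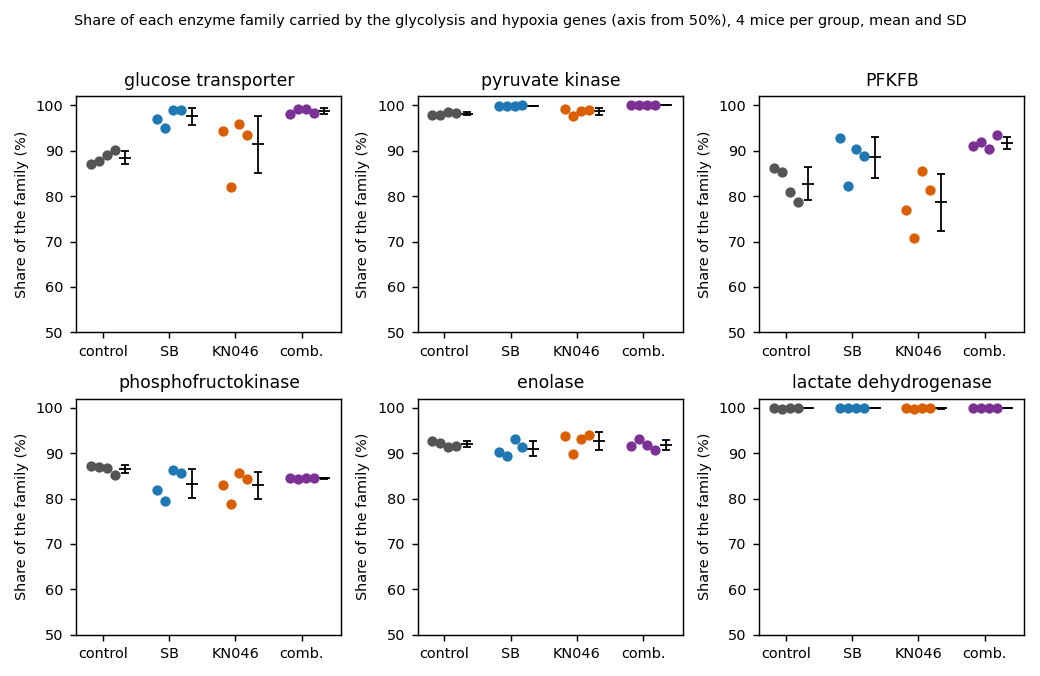
Share of each enzyme family, per kilobase of exon, carried by the list's members in each of the 4 mice of a group, with mean and SD; the vertical axis starts at 50%. The glucose transporter share is 88.5% on average in control and 97.6% with SB525334, where the liver-type Slc2a2 falls from 9.8% to 1.21%. KN046 mouse 2 is the lowest KN046 point in each of the 6 panels.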

How the data were processed

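Total RNA from the tumor tissue of 16 mice (4 per group, numbered 1 to 4 in the labels) was made into mRNA libraries and sequenced on an Illumina instrument. Per the labels and the study's methods, the authors processed the reads with cutadapt 2.7, HISAT2 2.2.1, HTSeq 2.0.4 and DESeq2 1.38.3 on GRCm39. Strand and multiple-mapping settings are not given in the sources used here. The authors deposited raw counts per gene, which were used, and normalized counts, which were not. Of 21959 genes, 13968 passed edgeR's filter (minimum count 10), and 4057 had a count of 0 in every mouse.

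edgeR 4.0.16 (R 4.3.3) was fitted with TMM scaling and a quasi-likelihood test to all 16 mice, with Benjamini-Hochberg adjustment over all tested genes. Total counts of 18368994 to 23877131 per mouse set the counting precision, and the common biological coefficient of variation was 20.1%. Floors of 3 counts per library cover counting error only. Shares used counts per kilobase of merged exon and an exact permutation test. Alternatives were DESeq2 1.42.0, other scalings and filters, the 8 mice of a comparison alone, a replicate block, summed control pairs, a 2-fold rule and leaving out each mouse. The fits were tested on simulated data.

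The 41 members and the other lists were chosen with earlier results of these data known. Values per mouse are given for members called in any comparison and for Slc2a1, Hk2, Hif1a, Vegfa and Car9. Ndrg1, Ero1a and Bnip3 were added after their values were seen. Of the other lists, 11 liver-type genes and up to 5 called genes per comparison are named. Results that need items withheld for evaluation are not reported here. Gene models, exon lengths and promoter windows came from GENCODE M39.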

Additional observations from a re-analysis of the deposited data

Results flagged for a closer look

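In 7 of 164 groups of 4 mice, 1 mouse lay far from the other 3, and chance alone gives about 1 in 20, or 8.2. Pfkfb4 was at 14.5 CPM in control mouse 4 against 16.6 to 16.9 in the others, and at 13.2 CPM in SB525334 mouse 3 against 17.1 to 17.8. Car9 was at 5.01 CPM in KN046 mouse 2 against 22.1 to 25.0. Hif1a was at 85.6 CPM in control mouse 2 against 96.01 to 97.6, and Lox at 44.7 CPM in control mouse 1 against 32.0 to 33.7. Higd1a was at 52.1 CPM in combination mouse 2 against 31.4 to 33.3, and Ndrg1 at 188 CPM in combination mouse 3 against 262 to 275.

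By the interaction test of edgeR, the effect of SB525334 differed with and without KN046 for 598 of 13968 tested genes, none of them among the 41. The 6 that stand in the other lists of glucose and HIF genes are given here. The log2 interaction was -5.995 for Fbp1 (adjusted p = 3.8e-05), -5.31 for Pck1 (0.00739), -4.30 for Gys2 (0.00759) and -3.80 for Pklr (0.017), all liver-type genes that were lower still in the combination. It was 1.97 for Hk3, a hexokinase of blood cells (0.0317), and -1.24 for Tfrc, the transferrin receptor (0.0361). With each similar control pair summed, Pklr (adjusted p = 0.0577 by edgeR), Hk3 (0.0875) and Tfrc (0.137) were not called. Without combination mouse 4 the values of Fbp1, Gys2 and Pklr were -7.80, -6.69 and -6.20, and Pck1 ran from -6.47 without combination mouse 1 to -4.67 without SB525334 mouse 2. For Gys2 and Pklr, with at most 2 counts in any combination mouse, the fitted value depends on the prior count and is no bound. The interaction was also called lower for 13 of the 14 hepatocyte markers and higher for 5 of the 7 neutrophil markers, and the part of these cells was not tested. The neutrophil markers summed to 105 to 121 CPM in control, 8.54 to 19.9 with SB525334 and 16.7 to 26.8 with KN046. In combination mice 1 to 4 they summed to 14.0, 18.9, 5.84 and 151 CPM, so only mouse 4 was high.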

How the results depend on the processing

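Counts below are of the 41 members, and the cause of each change was not tested. Against control, the count lower with SB525334 was 1 with summed control pairs and 1 under the rule of an unadjusted p under 0.05 and over 2-fold. The count lower with KN046 was 2 with DESeq2 and 0 with total-count scaling, with the 8 mice alone and with summed control pairs. With the combination it was 2 with the 8 mice alone (and 1 higher) and 2 under the 2-fold rule. For the combination relative to KN046, 1 was higher and 1 lower with the 8 mice alone, 0 were higher under the 2-fold rule and 5 were lower with DESeq2. Relative to SB525334, 1 was higher with DESeq2, 1 with the 8 mice alone and 2 under the 2-fold rule, and the interaction had 1 higher under the 2-fold rule. Leaving out 1 mouse at a time gave 1 to 3 lower with SB525334, 0 to 12 higher and 0 to 2 lower with KN046 (12 and 2 without KN046 mouse 2), 1 to 2 lower with the combination, 0 to 4 higher and 1 to 12 lower for the combination relative to KN046, and 0 to 1 higher for the interaction. The labels give mice of different groups the same numbers without saying that a number marks a shared batch. Same-numbered mice correlated at -0.483 to 0.527, over 0.1 in 10 of 24 pairs and in all 4 pairs for 0 of 6 pairs of groups (in 3 of 4 for KN046 with control and for KN046 with SB525334, mice 2 at 0.308), so the numbers were not taken as pairs. A mouse correlated best with its own number in 18 of 48 cases. With a replicate block 1 member, Slc16a3, was called higher in the interaction, and Slc16a3 replaced Aldoc as lower with KN046, and Hif1a was also called higher in the combination than with KN046, while outside the 41 Pdk4 with KN046 (adjusted p = 0.0534) and the interaction of Tfrc (0.0605) were not called. Over all tested genes, 224 were higher and 335 lower with KN046, against 12 and 63 with the 8 mice alone and 0 and 0 with summed control pairs. Signs turned for small values only: Vegfa with KN046 ran from -0.224 to 0.084 (log2, 1 mouse left out), and Car9 with the combination was -0.0141 with total-count scaling and ran from -0.219 to 0.179. In percentage points, the phosphofructokinase share in the combination relative to SB525334 ran from -0.132 to 2.15, enolase relative to control from -0.629 to 0.223, and lactate dehydrogenase with KN046 from -0.0354 to 0.0298.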
